A study of Mus musculus with 28 samples.

Results

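The miR-125 and miR-99/100 families were followed in small RNA libraries of mouse alveolar macrophages (AM), the resident phagocytes of the air spaces. The 5 members were taken by name, namely miR-99b-5p, miR-125a-5p, miR-99a-5p, miR-100-5p and miR-125b-5p (mmu-mir-99b-5p, mmu-mir-125a-5p, mmu-mir-99a-5p, mmu-mir-100-5p and mmu-mir-125b-5p in the tables), and all 5 were among the 308 miRNAs listed in all 4 deposited tables, out of 607 listed in at least one. Each table holds one genotype and one sex. The study asked how human surfactant protein A changes the AM miRNA response to oxidative stress in males and females. Co-ex mice carried the human SP-A1 and SP-A2 transgenes (6A2/1A0) on the SP-A knockout C57BL/6J background, and KO mice were the SP-A knockout itself, so the mouse SP-A gene was deleted in every group. Mice of 12 weeks breathed filtered air (FA) or ozone (O3) for 3 h, and AM were collected after 4 h of recovery, which gave 8 groups with 4 libraries each for co-ex and 3 each for KO. Nothing in the sources used here says that libraries of a group came from pooled animals, and p-values measure the spread between these libraries.

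The mammalian miR-99/100, let-7 and miR-125 genes lie in small clusters, each with a member of all 3 families. miR-125 is the vertebrate relative of lin-4, a timing gene of the worm, and miR-125a is known as an abundant miRNA of macrophages that dampens inflammatory signalling. miR-125b and miR-99a are well known from fibroblasts, epithelium and blood stem cells, and miR-99/100 miRNAs are known repressors of the growth kinase mTOR. A miRNA pairs with its targets mainly through its seed, bases 2 to 8.

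The mature sequences are shown because the families share a seed across clusters, so that the cluster of origin is seen only in the other bases. All 5 members matched a RefSeq entry (GRCm38.p6). Seeds are in capitals, and the sequences run 5′ to 3′.
miR-99b-5p: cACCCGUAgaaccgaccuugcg
miR-99a-5p: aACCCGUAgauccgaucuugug
miR-100-5p: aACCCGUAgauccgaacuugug
miR-125a-5p: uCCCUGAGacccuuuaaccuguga
miR-125b-5p: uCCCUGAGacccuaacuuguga
miR-351-5p: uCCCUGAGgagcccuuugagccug

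miR-99a-5p, miR-100-5p and miR-99b-5p had one seed, ACCCGUA, and no other of the 1679 mature mouse miRNAs searched had it. Counted from the 5′ end, miR-99a-5p and miR-100-5p differed by 1 base (U16A), and miR-99a-5p and miR-99b-5p by 4 (A1C, U11A, U16C and U21C). Reads of miR-99a-5p and miR-100-5p could therefore be assigned to the wrong one of the pair by a single base error, and their separate values are uncertain to that extent. miR-125a-5p (24 bases) and miR-125b-5p (22 bases) had the seed CCCUGAG and the same first 13 bases. That seed was shared with miR-351-5p, which was listed in all 4 tables, and with miR-6394 and miR-6367, which were listed in none of them.

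The miR-99b/miR-125a cluster spans 683 bases on the plus strand of chromosome 17, with miR-99b-5p at chr17:17830194-17830215 in an intron of Spaca6, a sperm membrane gene, and miR-125a-5p at chr17:17830817-17830840 in an annotated exon of it. miR-99a-5p lies at chr16:77598940-77598961 in an intron of the noncoding gene Mir99ahg, in a cluster of 47400 bases whose last miR-125b copy is at chr16:77646279-77646300. miR-100-5p lies at chr9:41531437-41531458, with the other miR-125b copy at chr9:41581940-41581961, both in introns of the noncoding gene 3110039I08Rik, in a cluster of 50565 bases. The mature miR-125b-5p is the same from both loci, so its reads cannot be divided between chromosomes 9 and 16, and it was kept as 1 member of the miR-99a/miR-100/miR-125b side.

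The libraries held between 41542 and 2082034 reads assigned to miRNAs, with a median of 490152. The macrophage and myeloid list (miR-223-3p, miR-142a, miR-146a, miR-155, miR-21a and miR-511-3p) was listed in full in every table and summed to 42511 to 223181 RPM in a library, where RPM is reads per 1000000 recovered reads. Epithelial miRNAs (the miR-200 family, miR-34/449, miR-375 and miR-203) summed to 1685 to 49828 RPM and mesenchymal miRNAs to between 143 and 25905 RPM. One library stood apart: KO male FA replicate 3 had 25905 RPM of mesenchymal, 28150.3 RPM of epithelial and 7177 RPM of endothelial miRNAs, against at most 850.3, 2648 and 11.2 RPM in the other KO male FA libraries, and its macrophage list summed to 42511 RPM against 223181 and 166608. Not all of the macrophage list was low in that library. miR-21a-5p, the main part of the sum, was 31497 RPM there against a group median of 157499 RPM. miR-223-3p, miR-142a-3p and miR-511-3p were also at their lowest. miR-142a-5p, miR-146a-5p and miR-155-5p were at their highest, at 4458, 3588 and 1134 RPM against group medians of 4431, 373 and 155 RPM. The members' O3 changes and differences that rest on KO male FA replicate 3 are given with and without it.

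miR-125a-5p and miR-99b-5p were among the most abundant miRNAs of these cells. By mean level miR-125a-5p ranked first of 412 listed miRNAs in co-ex males after FA and between 3 and 11 in the 7 other groups, and miR-99b-5p ranked between 2 and 16. miR-99a-5p ranked between 39 and 118, miR-125b-5p between 44 and 81, and miR-100-5p between 90 and 164. Together the 5 members took 2.21% to 28.4% of the reads of a library, with a median of 8.90%. Mature lengths are nearly equal, so levels in RPM were compared between members without a length correction. Differences between miRNAs in how well they enter a library were not corrected either, so ranks and ratios between members are of reads.

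**Figure D1:**
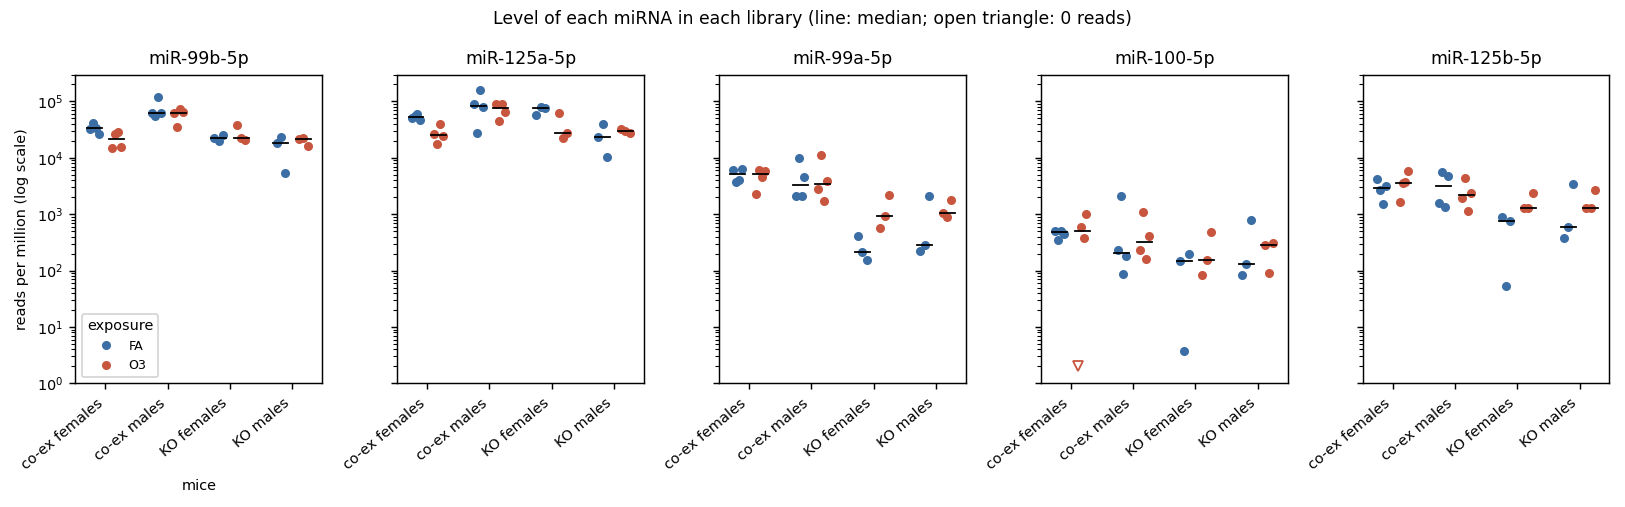
Level of each of the 5 miRNAs in RPM (log scale) in all 28 libraries, by mice (x axis) and exposure (blue FA, red O3), with the group median as a line and the library with 0 reads of miR-100-5p as an open triangle at the lower edge. The lowest libraries of miR-99b-5p and miR-125a-5p, both KO male FA replicate 3, hold 5426 and 10332 RPM, and miR-99a-5p is lower in KO than in co-ex libraries apart from a few that overlap.

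miR-99b-5p was highest in co-ex males, with medians of 63044 RPM after O3 and 61988 RPM after FA. Its range in co-ex males after FA (54790.5 to 121679 RPM) did not meet that in the next group, co-ex females after FA (26794 to 41301 RPM), and every other pair of neighbours in the order of medians overlapped. The lowest median, 18096 RPM, was in KO males after FA, where replicate 3 had 5426 RPM.

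miR-125a-5p followed a different order. Its medians were 84142 RPM in co-ex males and 77859 RPM in KO females after FA, and 76257 RPM in co-ex males and 25283 RPM in co-ex females after O3. Ranges of neighbours overlapped except between co-ex females after FA (47550.3 to 59698 RPM) and KO males after O3 (27658 to 32455 RPM). In KO males after FA the median was 23678 RPM, the lowest of the 8.

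The miR-99a/miR-100/miR-125b side was lower throughout, and for miR-99a-5p and miR-125b-5p every KO median was below every co-ex median. miR-99a-5p had medians of 3364 to 5274 RPM in the co-ex groups and of 210.3 to 1040.3 RPM in the KO groups. The co-ex male FA range (2073 to 9977 RPM) lay above that of KO males after O3 (892 to 1767 RPM), the next in order, but KO libraries with high values reached 2159.8 RPM. miR-125b-5p had medians of 2166 to 3636 RPM in co-ex and 591 to 1314 RPM in KO, and miR-100-5p, the rarest member, 205 to 496 RPM and 132 to 288 RPM, with the median of KO males after O3 above that of co-ex males after FA. No test was made between genotypes in level, since genotype goes with library code, so that the genotype and the preparation cannot be told apart.

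Within each library the sum of miR-99b-5p and miR-125a-5p was divided by that of miR-99a-5p, miR-100-5p and miR-125b-5p, a ratio that needs no normalization between libraries. The miR-99b/miR-125a side was the larger in all 28 libraries, with a median ratio of 17.1, a lowest of 2.47 in KO male FA replicate 3 and a highest of 372.8 in KO female FA replicate 2. The miR-99a/miR-100/miR-125b sum moved more: it ranged 66.3-fold over the libraries (267 to 17703 RPM), against 17.8-fold for the miR-99b/miR-125a sum (15758 to 280186 RPM). In KO female FA replicate 2 the ratio rested on 171 reads of miR-99a-5p, 43 of miR-125b-5p and 3 of miR-100-5p.

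By group, the ratio in co-ex females was 7.68, 14.4, 15.3 and 7.50 after FA and 10.6, 4.33, 7.80 and 3.18 after O3. In co-ex males it was 38.4, 4.66, 79.4 and 15.0 after FA and 30.5, 4.86, 53.8 and 19.1 after O3. Exposure groups overlapped in both, and the libraries of co-ex males spread widely within each exposure. In KO females it was 55.4, 372.8 and 92.5 after FA and 52.0, 18.9 and 9.58 after O3, so that the exposures did not overlap, by a small margin for O3 replicate 1. Single miRNAs did not overlap for 31.3% of those tested in KO females, and the share of such ratios was not counted. In KO males it was 61.2, 63.0 and 2.47 after FA and 20.8, 23.0 and 9.17 after O3, with O3 below FA in all libraries but FA replicate 3.

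The mean log2 ratio changed with O3 by -0.87 in co-ex females, -0.12 in co-ex males, -2.55 in KO females and -0.37 in KO males. Without KO male FA replicate 3 the last was -1.92. The SD within the 8 groups was 0.56 to 2.69 on the log2 scale. The change exceeded the SD of both of its groups in co-ex females (0.56 after FA and 0.79 after O3) and in KO females (1.42 and 1.23), and not in co-ex males or, with all libraries, in KO males. These ratios are given as a description with no test.

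**Figure D2:**
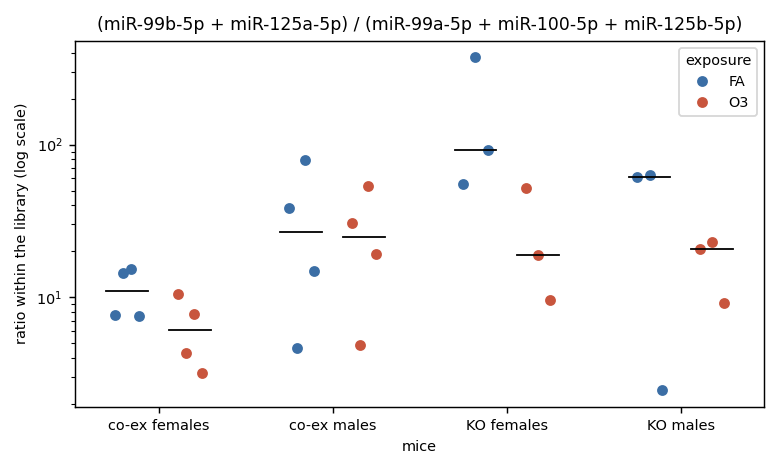
Ratio of the miR-99b/miR-125a sum to the miR-99a/miR-100/miR-125b sum in each library (log scale), by mice and exposure, with the group median as a line. Every KO female O3 library lies at or below 52.0 and every KO female FA library at or above 55.4, and KO male FA replicate 3 lies at 2.47, far below the other KO male FA libraries.

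Over all 28 libraries the members split into the same sides when followed from library to library, less clearly within the female tables. As deviations from the group mean of log2(value + 1) over the 28 libraries, miR-99b-5p and miR-125a-5p had r = 0.75, and pairs among miR-99a-5p, miR-100-5p and miR-125b-5p had r between 0.67 and 0.79. Pairs across the sides had r between -0.30 and -0.77. Within tables, miR-99b-5p and miR-125a-5p had r = 0.23 in co-ex females, 0.81 in co-ex males, 0.87 in KO females and 0.96 in KO males, so the pair was loosest in co-ex females. Pairs across the sides had r from -0.52 to 0.31 in co-ex females and from -0.68 to 0.0071 in KO females. In co-ex males they had -0.91 to -0.67 and in KO males -0.98 to -0.73. In KO females miR-99a-5p had r = 0.28 with miR-125b-5p and 0.36 with miR-100-5p. The KO male values include FA replicate 3, the lowest KO male library for miR-99b-5p and miR-125a-5p. Each r that includes that library, here or below, was not computed without it. Libraries share depth and composition across miRNAs, and these values are descriptions.

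The spread within groups also differed by member. Its SD on the log2 scale was 0.52 for miR-99b-5p and 0.64 for miR-125a-5p, smaller than the median of 0.89 over 162 miRNAs of at least 50 RPM. It was 0.97 for miR-99a-5p, 1.10 for miR-125b-5p and 1.96 for miR-100-5p, above that median. miR-100-5p ran from 0 reads in co-ex female O3 replicate 1 to 1859 in co-ex male FA replicate 2, and 98% of the miRNAs had a smaller SD.

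The miRNAs most like each member over the 28 libraries, among 157 candidates, differed between the sides. miR-99b-5p was most like miR-342-3p (r = 0.94), miR-342-5p (0.78) and miR-103-3p (0.75), and miR-125a-5p like miR-423-5p (0.76), miR-342-5p (0.75) and miR-501-3p (0.75). miR-99a-5p was most like miR-30a-3p (0.90), let-7c-5p (0.87), which is made at its own cluster and at another locus, and miR-143-3p (0.85). miR-100-5p was most like miR-222-3p (0.83), miR-143-3p (0.78) and miR-30a-3p (0.76). miR-125b-5p was most like miR-183-5p (0.91), miR-200c-3p (0.81) and miR-200b-3p (0.80), the latter pair among the epithelial markers, while miR-143-3p is among the mesenchymal ones.

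The marker sums of other cell types moved with the cluster ratio. Over the deviations of the 28 libraries, the log2 ratio had r = -0.92 with the mesenchymal sum, -0.83 with the epithelial and -0.67 with the endothelial sum. It had r = -0.35 with the red cell, -0.26 with the lymphocyte and 0.38 with the macrophage and myeloid sum. These values include KO male FA replicate 3, which had the lowest ratio and the highest mesenchymal and endothelial sums. Of the mesenchymal list 5 to 7 of the 8 miRNAs were listed in a table, and of the epithelial list all 10. In co-ex males, replicate 2 of both exposures had the lowest ratios and the highest mesenchymal sums, at 9354 RPM after FA and 3188 RPM after O3. O3 replicate 4 had a similar sum of 2858 RPM with a ratio of 19.1, against 4.86 in O3 replicate 2. The part of these cells in the member levels was not tested, and in bulk libraries fewer cells of a type and less RNA per cell cannot be told apart.

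**Figure D3:**
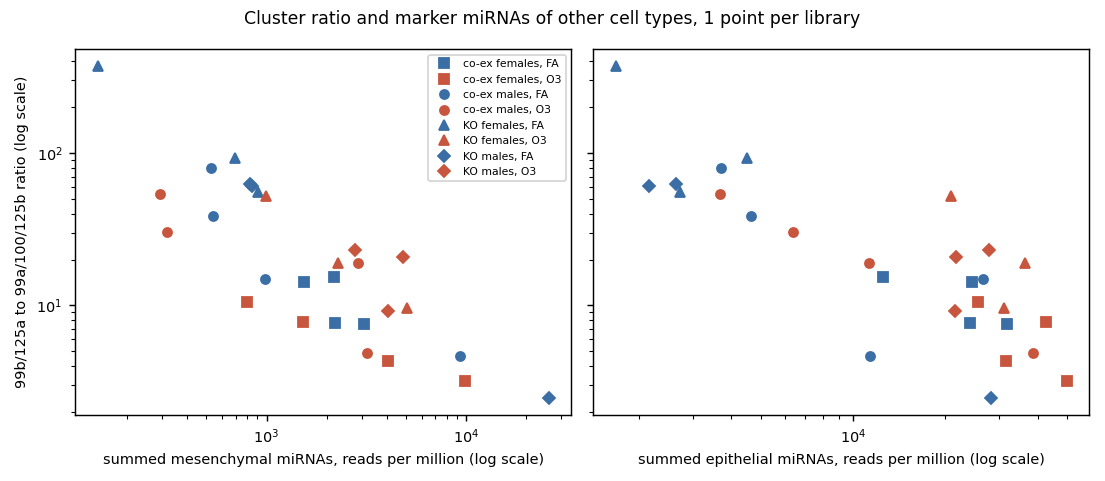
Ratio of the miR-99b/miR-125a sum to the miR-99a/miR-100/miR-125b sum against the summed mesenchymal (left) and epithelial (right) marker miRNAs in RPM, all axes on log scales, 1 point per library, with shape for mice and colour for exposure. The ratio falls as either sum rises, from 372.8 at 143 RPM of mesenchymal miRNAs to 2.47 at 25905 RPM.

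O3 was compared with FA within each table by limma, with p adjusted over all miRNAs tested in that table and a threshold of 0.1. Normalized values, reads divided by the size factor of the library, are used for these comparisons, and fold changes are on the log2(value + 1) scale. In KO females miR-125a-5p fell and miR-99a-5p rose, which made 2 of 5 members, where 13.2% of all 319 tested miRNAs passed (10% higher and 3.13% lower). No member passed in KO males, where 0.909% of 440 passed, in co-ex females (0.369% of 271) or in co-ex males (0% of 312).

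miR-125a-5p in KO females measured 32690.3, 47406 and 40482 after FA and 30965, 10837 and 13635 after O3. As for 31.3% of the miRNAs tested in this table, the exposures did not overlap, but O3 replicate 1 came close to the lowest FA library. The log2 fold change was -1.26 (SE 0.38) with an adjusted p of 0.0801 by limma, and the ratio of means was 0.460. Over the alternatives the adjusted p ran from 0.00858 to 0.587, and the call was kept in 2 of 15, without the filter on low values and without O3 replicate 1. It was lost without each of the 5 other libraries.

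For miR-99b-5p, from the same cluster, no change was detected. It measured 12552, 11843 and 13369 after FA and 19030.2, 10819.5 and 10080.3 after O3 in KO females. The O3 libraries lay on both sides of the FA ones, and the log2 fold change was 0.02 (SE 0.27, limma adjusted p 0.984). miR-125a-5p stood at 2.60, 4.00 and 3.03 times miR-99b-5p in the FA libraries and at 1.63, 1.00 and 1.35 times in the O3 libraries, with no overlap.

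miR-99a-5p in KO females measured 236, 125.2 and 81.0 after FA and 283, 444 and 1058 after O3. Every O3 library lay above every FA library, again with O3 replicate 1 the nearest to FA. Here too, 31.3% of the miRNAs tested did not overlap, in either direction. For miR-99a-5p the values behind the test were as follows. The log2 fold change was 1.92 (SE 0.61, limma adjusted p 0.0980) and the ratio of means 4.03. The call was kept in 5 of 15 alternatives, whose adjusted p ran from 0.0189 to 0.637. It held without FA replicate 1 and without O3 replicate 1 and was lost without each of the other 4 libraries.

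miR-125b-5p in KO females measured 498, 31.5 and 400.2 after FA and 637, 629 and 1177 after O3. The exposures did not overlap, which held for 31.3% of the miRNAs tested in this table. FA replicate 2 lay far below the rest. The log2 fold change was 2.06 (SE 0.96) and did not pass (limma adjusted p 0.223), and it was 0.80 without FA replicate 2. miR-100-5p measured 82.4, 2.20 and 101 after FA and 41.6, 73.2 and 240.1 after O3, which overlapped, with a log2 fold change of 1.60 (SE 1.40, limma adjusted p 0.564). Its lowest value, 2.20, stood for 3 reads, so that its fold change depends on 1 library with almost no reads of it, and without that library it was -0.016.

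In the same KO female libraries the epithelial sum rose from 1685 to 4503 RPM after FA to 20918 to 36352 RPM after O3, and 8 of the 9 epithelial miRNAs tested were called higher, with a median log2 fold change of 3.62 against 0.06 over all miRNAs tested. The mesenchymal sum was 143 to 910.4 RPM after FA and 989.7 to 5032 RPM after O3, with none of 4 tested called. The macrophage and myeloid sum was 106154 to 123324 RPM after FA and 103943 to 111052 RPM after O3, with none of 7 called. KO female FA replicates 2 and 3 (and KO male FA replicate 3) have later library codes in the labels than all other KO libraries. These are FA libraries only, so exposure goes in part with library code. The O3 change and any difference in preparation cannot be fully told apart there. Without the later codes 1 KO female FA library is left, which is taken to vary like the O3 ones. The log2 fold change was then -0.98 (SE 0.57) for miR-125a-5p and 1.11 (SE 0.69) for miR-99a-5p. The part of the epithelial and mesenchymal miRNAs in the fall of miR-125a-5p and the rise of miR-99a-5p was not tested.

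KO males gave no member past the threshold. miR-99a-5p measured 322, 378 and 3077 after FA and 1223, 1028 and 2162 after O3, and miR-125b-5p measured 529, 786 and 5122 after FA and 1497, 1501 and 3341 after O3. In both, FA replicate 3 was the highest library and the other FA libraries lay below all O3 ones. The log2 fold changes were 0.95 (SE 0.89, limma adjusted p 0.952) for miR-99a-5p and 0.60 (SE 0.87, limma adjusted p 0.961) for miR-125b-5p.

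Without KO male FA replicate 3, which leaves 2 FA libraries, miR-99a-5p rose by 2.00 (SE 0.32, limma adjusted p 0.000589) and miR-125b-5p by 1.60 (SE 0.35, limma adjusted p 0.00641) on the log2 scale. These were 2 of 5 members, where 18% of the 479 miRNAs tested in that set passed (13.8% higher). All 10 epithelial and 3 of 7 mesenchymal miRNAs tested were then called higher too, and their part in the result was not tested. The library that was left out is the one with the high mesenchymal, epithelial and endothelial sums. It was also the highest KO male library for miR-99a-5p and miR-125b-5p, so that leaving it out raised both changes. These p-values therefore show only how far the result depends on that library.

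The miR-99b/miR-125a side did not pass in KO males either way. miR-125a-5p measured 33610.4, 53730.3 and 15134 after FA and 38153, 35061 and 33847 after O3, and miR-99b-5p measured 25688, 30647 and 7949 after FA and 25547, 25614 and 20029.8 after O3. FA replicate 3 was the lowest library for both. The log2 fold changes were 0.24 (SE 0.47) and 0.36 (SE 0.53), and without FA replicate 3 they were -0.25 for each, with adjusted p of 0.566 for miR-125a-5p and 0.547 for miR-99b-5p by limma. miR-100-5p measured 118, 175 and 1154 after FA and 339, 105 and 374 after O3, a log2 fold change of -0.28 (SE 0.96) that was 0.72 without FA replicate 3.

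**Figure D4:**
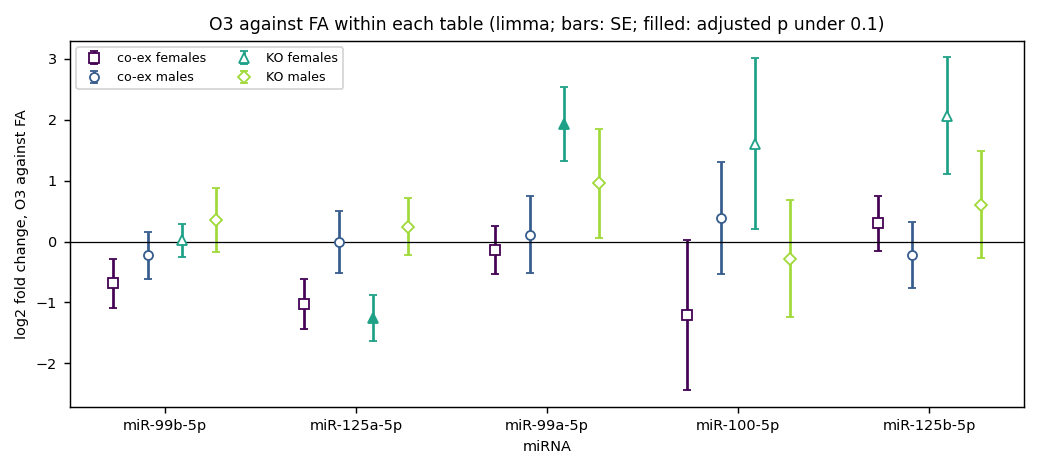
Log2 fold change of O3 against FA on the log2(value + 1) scale for each of the 5 miRNAs (x axis) in the 4 tables (shape and colour), with the SE from limma as bars and filled symbols for an adjusted p under 0.1. The filled symbols are miR-125a-5p at -1.26 and miR-99a-5p at 1.92, both in KO females, and without KO male FA replicate 3 the values of KO males would be 2.00 for miR-99a-5p and 1.60 for miR-125b-5p.

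In co-ex females miR-125a-5p measured 7687, 9299, 9749 and 6726 after FA and 4335, 2699.5, 5884 and 3962 after O3. The highest O3 value was under the lowest FA value, as for 2.58% of the miRNAs tested, and the ratio of means was 0.505. The log2 fold change was -1.03 (SE 0.41, unadjusted p 0.0249 by limma) and did not pass (limma adjusted p 0.730, and 0.363 to 0.944 over 16 alternatives). In these libraries the red cell sum was 12712 to 137286 RPM after FA and 2833 to 4284 RPM after O3, with 1 of 2 red cell miRNAs tested called lower. The epithelial sum was 12511 to 31722 RPM after FA and 25492 to 49828 RPM after O3, with none of 10 called and a median log2 fold change of 0.99 against -0.16 over all miRNAs tested, and the part of either list in the values of miR-125a-5p was not tested.

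miR-99b-5p in co-ex females measured 5045, 6985, 5525 and 3790.1 after FA and 2546, 4155, 4177 and 2511 after O3. The ranges overlapped, with O3 above FA in 2 of 16 pairs of libraries, and the log2 fold change was -0.68 (SE 0.40, limma adjusted p 0.778). miR-99a-5p ran from 621 to 930.4 after FA and from 378 to 949.9 after O3 (log2 fold change -0.14, SE 0.40), and miR-125b-5p from 248 to 649 and from 273 to 925 (0.30, SE 0.45). miR-100-5p ran from 58.8 to 82.1 after FA and from 0 to 162 after O3 (-1.21, SE 1.23). Without O3 replicate 1, whose count of 0 reads allows a value of up to 12.1, the change of miR-100-5p was 0.44.

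In co-ex males all 5 members overlapped between exposures. miR-125a-5p measured 34168, 9224, 54589 and 21131 after FA and 32150.5, 16514, 33105 and 20298 after O3, and its log2 fold change was -0.01 (SE 0.51). The 4 others had log2 fold changes between -0.23 (SE 0.38, miR-99b-5p) and 0.38 (SE 0.92, miR-100-5p). No miRNA of this table passed in limma, edgeR or DESeq2, and 11 had an unadjusted p under 0.05 in limma.

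The difference between tables in the response to O3 was tested next. No member passed in any of the 4 differences. miR-99a-5p came nearest, with an O3 change lower by 2.06 on the log2 scale (SE 0.70) in co-ex females than in KO females (limma adjusted p 0.108, where 8.71% of 241 miRNAs passed), and it passed in 5 of 20 alternatives. For miR-125a-5p, which was lower after O3 in both female tables, this difference was 0.23 (SE 0.52). Between KO females and KO males the O3 change of miR-125a-5p differed by -1.50 (SE 0.65, unadjusted p 0.0417 by limma, adjusted p 0.758), where no miRNA passed in limma and 17 had an unadjusted p under 0.05. Without KO male FA replicate 3 this difference was -1.01 (SE 0.51, unadjusted p 0.0737 by limma, adjusted p 0.853). No miRNA passed in the differences between co-ex males and KO males or between co-ex females and co-ex males, where 6 and 8 had an unadjusted p under 0.05 in limma. Without KO male FA replicate 3 the 6 became 28, still with none past the threshold, and the O3 change of co-ex males minus that of KO males was -1.88 (SE 0.93) for miR-99a-5p and -1.82 (SE 0.82) for miR-125b-5p on the log2 scale (limma adjusted p 0.513 for each), against -0.84 and -0.83 with it.

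Differences between the sexes were tested with edgeR (quasi-likelihood) on recovered reads, since each table was normalized separately. In co-ex mice the males and the females have separate runs of library codes in the labels, so that sex and any difference in preparation cannot be told apart there. After O3, co-ex males had 61201, 35884, 72504 and 64887 RPM of miR-99b-5p and co-ex females 15238, 26829.5, 28430.3 and 15601 RPM. For miR-125a-5p the values were 90919, 44914, 88760.2 and 63753 RPM in males and 25949.6, 17429.5, 40053 and 24616 RPM in females. The share of all miRNAs whose libraries separate by sex was not counted, here or in the other comparisons of the sexes. Both were higher in males, by 1.65 for miR-99b-5p and 1.66 for miR-125a-5p on the log2 scale (edgeR adjusted p 0.0535 for each). They were 2 of 5 members, where 7.79% of 244 miRNAs passed (6.15% higher in males), and the 3 members of the other side did not pass, with log2 differences of 0.06 for miR-99a-5p, -0.10 for miR-100-5p and -0.50 for miR-125b-5p. Both calls were lost without female replicates 1, 2 or 4 and without male replicates 1 or 3, where the adjusted p of miR-99b-5p ran from 0.147 to 0.199 and that of miR-125a-5p from 0.147 to 0.231. The epithelial sum in these libraries was 3699 to 38529 RPM in males and 25492 to 49828 RPM in females, and its part in the difference was not tested.

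After FA miR-99b-5p was 1.15 higher in co-ex males than in co-ex females on the log2 scale and did not pass (edgeR adjusted p 0.112, where 13.9% of 238 miRNAs passed). miR-125a-5p was 0.73 higher (edgeR adjusted p 0.406), with co-ex male FA replicate 2 at 27734 RPM below all females. In KO mice no member and no other miRNA passed in edgeR between sexes after FA (301 tested) or O3 (311 tested), while 23 and 28 had an unadjusted p under 0.05 and DESeq2 called 11 and 7, none of them a member. In KO mice after FA miR-125a-5p was 1.43 lower in males on the log2 scale, with 23678, 40451 and 10332 RPM against 57754, 79604 and 77859 RPM in females, and it did not pass either (edgeR adjusted p 0.507). Without male FA replicate 3 the log2 difference was -1.15 (edgeR adjusted p 0.286), and no miRNA passed.

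The partner list held 14 miRNAs: the opposite arms, the let-7 arms of the same clusters, let-7c-2-3p of another locus, and miR-351-5p. Of these, 7 to 10 were tested in a table. None was called in co-ex females, co-ex males or KO males, where 0.369%, 0% and 0.909% of all miRNAs tested were called. In KO females 2 of the 8 tested were called lower and none higher, where 3.13% of all 319 miRNAs tested were lower and 10% higher. The median log2 fold change of the partners in KO females was 0.06, as over all miRNAs tested.

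The called partners were both let-7 miRNAs. let-7e-5p, the let-7 of the miR-99b/miR-125a cluster, measured 13140.5, 18449 and 11316 after FA and 7412, 3726 and 3982 after O3 in KO females, with a log2 fold change of -1.55 (SE 0.32, limma adjusted p 0.0157). let-7a-5p, which is made at several loci including the cluster of miR-100, fell by 1.11 (SE 0.21, limma adjusted p 0.0126). let-7c-5p, which is made at the miR-99a cluster and at another locus, had a log2 fold change of 0.76 (SE 0.29, limma adjusted p 0.147). Its reads cannot be divided between the loci. let-7c-1-3p, the opposite arm from the cluster, was listed in no table, and let-7c-2-3p, that from the other locus, in every table. In KO females let-7e-5p and miR-125a-5p of the chromosome 17 cluster were called lower after O3, where miR-99b-5p had a log2 fold change of 0.02. Whether these changes differ from each other was not tested. The call of miR-125a-5p was kept in 2 of 15 alternatives, and the calls of the let-7 miRNAs are given for the main setting alone.

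The opposite arms were far rarer. miR-125a-5p was 87.7 to 335 times as abundant as miR-125a-3p, and miR-99b-5p was 35.4 to 481 times as abundant as miR-99b-3p. In KO females miR-125a-3p had a log2 fold change of -1.28 (SE 0.67, limma adjusted p 0.279), with 143, 540.5 and 121 after FA and 110.3, 86.1 and 67.2 after O3. These did not overlap, as for 31.3% of the miRNAs tested in KO females. miR-99b-3p had a log2 fold change of 0.14 (SE 0.63). The opposite arms of miR-99a and miR-100 were listed in no table, that of the chromosome 9 miR-125b copy in KO males alone and that of the chromosome 16 copy in all tables but KO females, at mean levels of 5.28 to 26.5 RPM.

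miR-351-5p, an X-linked miRNA with the seed of miR-125, was also listed in every library. It ran from 663 to 3709 RPM over the 28 libraries, and its log2 fold changes with O3 were 0.06 (SE 0.42) in co-ex females, 0.12 (SE 0.54) in co-ex males, -0.01 (SE 0.32) in KO females and 0.13 (SE 0.49) in KO males. No change with O3 was detected for it in any table. In KO females after FA it was more abundant than miR-125b-5p in all 3 libraries, at 1235, 1249 and 1757 RPM against 879, 52.9 and 769.6 RPM.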

How the data were processed

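Small RNA of AM was sequenced by the authors (NEXTflex libraries, HiSeq), trimmed with the FASTX-Toolkit after CASAVA filtering, and aligned and counted per mature miRNA with Chimira. The genome build and annotation are not given in the sources used here. The deposited library values are a normalized signal: the read count divided by a size factor per library, each of the 4 tables on its own. The tables also hold the authors' mean, log2 fold change, p-value and q-value per miRNA and a score, the rank by p-value, all deposited by the authors and not used here.

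In all 28 libraries 100% of values were whole multiples of one step (tolerance 0.01), so reads were recovered. In 5 libraries fewer than 100 low values bear on this. RPM is reads per 1000000 recovered reads. The depth of 41542 to 2082034 reads sets the precision, and a count of 0 allows up to 3 reads (counting error only).

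Groups came from the labels. In each table limma 3.58.1 (trended prior) tested O3 against FA on the log2 scale after adding a pseudocount of 1. A miRNA was tested where its value reached 5 in a number of libraries no smaller than the smaller group. Adjustment was by Benjamini-Hochberg over all miRNAs tested, with a threshold of 0.1. Differences of O3 changes were tested by limma on miRNAs that passed in both tables. Sexes were compared by edgeR 4.0.16 (quasi-likelihood, TMM) on the recovered reads. DESeq2 1.42.0, R 4.3.3 and Python 3.11.15 were also used. The fits were tested on simulated data. Likeness is Pearson r of deviations from group means over miRNAs of at least 50 RPM in every group. Alternatives were library totals, TMM, no filter, a pseudocount of 0.1, a threshold of 0.05, edgeR, DESeq2, a replicate block, each library left out, and the later library codes left out in KO.

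The members, the partner list and the marker lists were chosen with earlier results of these data known. The genes named are the 5 members, the partner list, the 3 miRNAs most like each member and the cell type markers. Sequences and coordinates are from RefSeq on GRCm38.p6 and gene annotation from GENCODE on the same assembly.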

Additional observations from a re-analysis of the deposited data

Results flagged for a closer look

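Among the co-ex groups, which hold 4 libraries each, 1 value stood far from the other samples of its group. miR-100-5p measured 694 in co-ex male FA replicate 2, against 30.0 to 87.7 in the other 3 libraries of that group, a gap of 0.913 of the whole range, over Dixon's limit for 4 samples. That library also had the highest miR-99a-5p (3318) and miR-125b-5p (1876) and the highest mesenchymal sum (9354 RPM) of its group. In all, 24 groups of 4 values were examined, and chance flags about 1 in 20 of them.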

How the results depend on the processing

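Depth limited miR-100-5p most (0 to 1859 reads). Library totals moved the median log2 change of all miRNAs from 0.06 to 0.29 in KO females and from -0.04 to 0.21 in KO males, and the causes of the changes below were not tested.

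In KO females 42 miRNAs and 2 members were called. DESeq2 called 69 miRNAs. Members called were 1 with library totals or DESeq2 and 0 with TMM, a pseudocount of 0.1, a threshold of 0.05, edgeR or the later library codes left out. Leaving out 1 library gave 25 (without O3 replicate 3) to 52 miRNAs, and 2 members without O3 replicate 1, with 1 without FA replicate 1 and 0 without each of the other 4. In KO males 4 miRNAs and 0 members were called. The threshold of 0.05 gave 2 miRNAs, edgeR 1 and DESeq2 14, and without the later code, which is FA replicate 3, 86 miRNAs and 2 members were called, where leaving out 1 library gave 0 (without O3 replicate 3) to 86, with 2 without FA replicate 1 and 1 without O3 replicate 1, O3 replicate 2 or FA replicate 2. In co-ex females the count was 1, and 0 without O3 replicate 2 or 4.

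For the O3 change of co-ex females minus KO females, 21 miRNAs and 0 members were called. Library totals gave 32 and 1, the threshold of 0.05 gave 12, and 1 library left out gave 9 to 31 (9 and 10 without co-ex FA replicates 4 and 1, 12 without KO O3 replicate 2), with 1 member without co-ex FA replicate 2, co-ex O3 replicate 4, KO FA replicate 1 or KO O3 replicate 1 and 0 otherwise. For co-ex females minus co-ex males 0 were called, and 1 without male O3 replicate 4. For co-ex males against females after FA (33 miRNAs, 0 members) DESeq2 gave 61 and 1, the threshold of 0.05 gave 20, and 1 library left out 11 to 68. The count was 68 without female replicate 2, 11 and 13 without female replicates 1 and 4, and 13 and 17 without male replicates 1 and 2, with 1 member without female replicate 2 or male replicate 4 and 0 otherwise. After O3 (19 and 2) no filter gave 10 and 1, DESeq2 60, the threshold of 0.05 gave 7 and 0, and 1 library left out 0 to 71. The count was 71 without male replicate 2, and at most 1, with 0 members, without female replicates 1, 2 or 4 or male replicates 1 or 3. In KO mice DESeq2 gave 11 after FA and 7 after O3, where edgeR gave 0 and 0 and, after O3 without male replicate 2, 1.

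Signs turned for changes that did not pass. In co-ex females miR-100-5p was 0.15 in edgeR and 0.17 in DESeq2, and ran from -2.01 to 0.44 with 1 library left out, as miR-99a-5p did from -0.29 to 0.15, both above 0 without O3 replicate 1 alone. In co-ex males miR-125a-5p was 0.043 with TMM, and miR-100-5p was -0.51 in edgeR and -0.35 in DESeq2. With 1 library left out the values there were -0.48 to 0.38 for miR-125a-5p, -0.39 to 0.052 for miR-99b-5p, -0.17 to 1.32 for miR-100-5p, -0.42 to 0.59 for miR-99a-5p and -0.58 to 0.13 for miR-125b-5p, with signs that turned without FA replicates 1, 2 or 3 or O3 replicates 2, 3 or 4. In KO females miR-99b-5p was -0.014 with TMM and -0.27 to 0.19 with 1 library left out, and miR-100-5p -0.016 to 2.48, turned without FA replicate 2 or, for miR-99b-5p, O3 replicate 1. In KO males without the later code miR-125a-5p was -0.25, miR-99b-5p -0.25 and miR-100-5p 0.72, and miR-125b-5p was -0.018 in edgeR and -0.022 in DESeq2. With 1 library left out the values were -0.25 to 0.66 for miR-125a-5p, -0.25 to 0.72 for miR-99b-5p, -0.035 to 1.60 for miR-125b-5p and -0.92 to 0.72 for miR-100-5p, turned without FA replicate 3, FA replicate 1 (miR-125b-5p) or O3 replicate 2 (miR-100-5p).

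In no comparison was the correlation of same-numbered libraries over 0.1 for every replicate number, a rule that cannot exclude pairing of some libraries. For co-ex females and males after O3 it was 0.04, 0.30, 0.42 and 0.26. With the replicate block the count was 0 members in KO females and 1 miRNA in KO males. For co-ex males against females after O3 it was 63 miRNAs with 2 members, against 19 with 2 members without the block. The O3 change of the log2 cluster ratio stayed within 1 SD of its value, the SD pooled over the FA and O3 groups of its table, where the SD of the KO male FA group, 2.69, includes FA replicate 3. With 1 library left out the change ran from -0.86 to 0.55 in co-ex males and, in KO males, from -1.92 (without FA replicate 3) to 0.42 (without FA replicate 2).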
